A study of Arabidopsis thaliana with 12 samples.

Results

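The genotype by bleomycin interaction was measured in all 12 of 12 RNA-seq libraries of Arabidopsis thaliana root tips. It is the bleomycin effect in the scl5 scl21 pat1 triple mutant minus the bleomycin effect in the wild type Col-0, on the log2 scale, so a negative value means a more negative or less positive bleomycin effect in the triple mutant. The 4 groups, with 3 biological replicates each per the labels, were bleomycin-treated triple mutants, triple mutant controls, bleomycin-treated Col-0 and Col-0 controls. Each sample started from about 100 seeds sown on nylon mesh. After 7 days the seedlings were moved to medium with 0.5 µg/ml bleomycin, where treatment lasted 24 h, or to control medium, and root tips of 0.2 cm were taken. The labels name 1 triple mutant combination and do not describe its alleles. A whole tip holds many cell types, so in these bulk samples fewer cells of a type and less RNA per cell cannot be told apart.

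Bleomycin breaks DNA strands. In plants the NAC transcription factor SOG1 is activated by the kinases that sense such breaks, and it induces repair enzymes, nucleotide synthesis and inhibitors of cell division. SCL5, SCL21 and PAT1 are GRAS-family proteins of the PAT1 branch, first known from phytochrome A signalling. In the root, PAT1-branch proteins are known partners of ERF115, an ERF transcription factor induced beside dead cells that drives stem cell replacement and regeneration. DOF3.4, also called OBP1, is a DOF-type transcription factor known to promote the expression of cell-cycle genes. The question the interaction addresses is whether loss of the 3 GRAS genes alters the transcriptional response to the drug.

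Libraries held 36285531 to 40875363 estimated reads each. Of 37138 loci other than transposable elements, 21561 passed the filter on low counts. All levels below are CPM, reads of a gene scaled to library size after TMM normalization. By library size alone, before TMM normalization, 3 reads in a library came to 0.0734 to 0.0827 CPM. Triple mutant control 3 stood apart. In a principal component analysis it lay at 125.9 on component 1 and 102.7 on component 2, while the other controls lay between 5 and 64.3 and the bleomycin libraries between -73.1 and -23.9 on component 1. In that library 381 loci had 0 reads that had at least 10 reads in every other library, against at most 35 such loci in any other. Values without it are given below for some of the named genes that it moves. The root tip label matched the markers: over the 12 libraries the root meristem regulator PLT1 ranged from 19.3 to 43.4 CPM, PLT2 from 11.5 to 20.6 CPM and the root cap factor SMB from 22.4 to 36.2 CPM. The quiescent-centre factor WOX5 ranged from 0.229 to 3.14 CPM and the root cap stem cell factor FEZ from 1.07 to 6.89 CPM.

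The targeted genes were low in the mutant libraries. SCL5 (AT1G50600, chr1:18737063-18739649 in TAIR10.1) had 0, 2 and 0 reads in bleomycin-treated triple mutants and 0, 1 and 0 reads in triple mutant controls, while 44.1, 36 and 41.8 CPM were measured in bleomycin-treated Col-0, against 37.8, 34.8 and 35.4 CPM in Col-0 controls. SCL21 (AT2G04890, chr2:1720361-1722604) had 0 reads in all 6 mutant libraries, while Col-0 had 12.1, 14.8 and 10.2 CPM after bleomycin and 12.5, 12.4 and 9.6 CPM on control medium. PAT1 (AT5G48150, chr5:19522238-19524788) kept a partial signal. It had 10.2, 16.9 and 9.77 CPM in bleomycin-treated triple mutants, against 9.34, 9.53 and 9.72 CPM in triple mutant controls, and 36.1, 43.3 and 34.3 CPM in bleomycin-treated Col-0, against 26.1, 25.9 and 25.5 CPM in Col-0 controls. Every mutant library lay below every Col-0 library for all 3 genes. PAT1 was lower in the triple mutant by edgeR's quasi-likelihood test with Benjamini-Hochberg adjustment, with a log2 genotype difference of -1.62 (SE 0.19, adjusted p = 0.00449) in bleomycin and -1.44 (SE 0.19, adjusted p = 0.0171) on control medium. Its interaction was -0.18 (95% interval -0.75 to 0.38, unadjusted p of 0.496). Counting the targets, few loci differed by genotype within either medium: 6 of 21561 in bleomycin (0.0278%), 1 higher (0.00464%) and 5 lower (0.0232%), and 6 on control medium (0.0278%), also 1 higher (0.00464%) and 5 lower (0.0232%), with SCL5, SCL21, PAT1, AT2G04900 and AT1G64795 in both, AT5G35940 in bleomycin only by this threshold and AT5G33395 on control medium only by this threshold. Beyond SCL5, SCL21 and PAT1 that left 3 loci in each medium. AT2G04900, whose locus code follows that of SCL21, had 0 to 0.05 CPM in the mutant libraries and 66 to 113 CPM in Col-0. Whether this comes with the mutated SCL21 locus was not tested. Neither AT5G35940 nor AT5G33395 was called in the interaction.

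No gene passed the test of the interaction. edgeR's quasi-likelihood test with Benjamini-Hochberg adjustment called 0 of 21561 genes (0%), with a smallest adjusted p of 1. DESeq2, limma voom and limma voom with library quality weights also called 0 genes. At an unadjusted p under 0.05 there were 377 genes (1.75%) by edgeR, 167 higher (0.775%) and 210 lower (0.974%). DESeq2 gave 450, voom 435, weighted voom 664 and edgeR with the replicate number as a block 663. The edgeR share of 1.75% is below the share of 0.05 that this threshold passes with no interaction in any gene. That model has no term for the replicate number, though same-numbered libraries of different groups had correlated deviations (-0.026 to 0.472). The low share is therefore not read as absence of an interaction. Leaving out any 1 library also gave 0 calls, with 327 to 714 genes at an unadjusted p under 0.05. The largest numbers came with triple mutant bleomycin 2, triple mutant control 1, triple mutant control 2, Col-0 bleomycin 1 and Col-0 control 1 left out, in that order, at 563, 607, 664, 714 and 617. By contrast, the same model called 1727 genes (8.01%) for bleomycin in the triple mutant, 905 higher and 822 lower, and 1455 genes (6.75%) for bleomycin in Col-0, 925 higher and 530 lower. Those counts depended on single libraries: without triple mutant bleomycin 1 or 2 or control 2 or 3, the triple mutant count was 510, 596, 612 and 932. Without Col-0 bleomycin 1 or 2 or control 2 or 3, the Col-0 count was 584, 831, 356 and 434.

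The absence of calls is bounded by the intervals. Over all genes tested the median interaction was -0.003 with an interquartile range of -0.20 to 0.18, and the median half-width of the 95% interval was 0.64. The whole interval lay within ±1 log2, that is within a 2-fold difference either way, for 12397 genes (57.5%). Among 12693 genes with a mean of at least 10 CPM, it did so for 11232 (88.5%), with a median half-width of 0.47. Bleomycin averaged over the genotypes changed 5173 genes (24%), whose median interaction was -0.04 with an interquartile range of -0.19 to 0.12. The median size of their bleomycin effect was 0.58 in the triple mutant and 0.56 in Col-0. The 2 directions differed: it was 0.66 in the triple mutant and 0.73 in Col-0 for the 2787 called higher. For the 2386 called lower it was 0.52 and 0.47. These differences between the genotypes were not tested. Strong responders were bounded less than all genes tested. Among the 1070 of the 5173 genes with an average effect of at least 2-fold, 153 intervals (14.3%) lay within ±1 and the median half-width was 1.39.

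**Figure D1:**
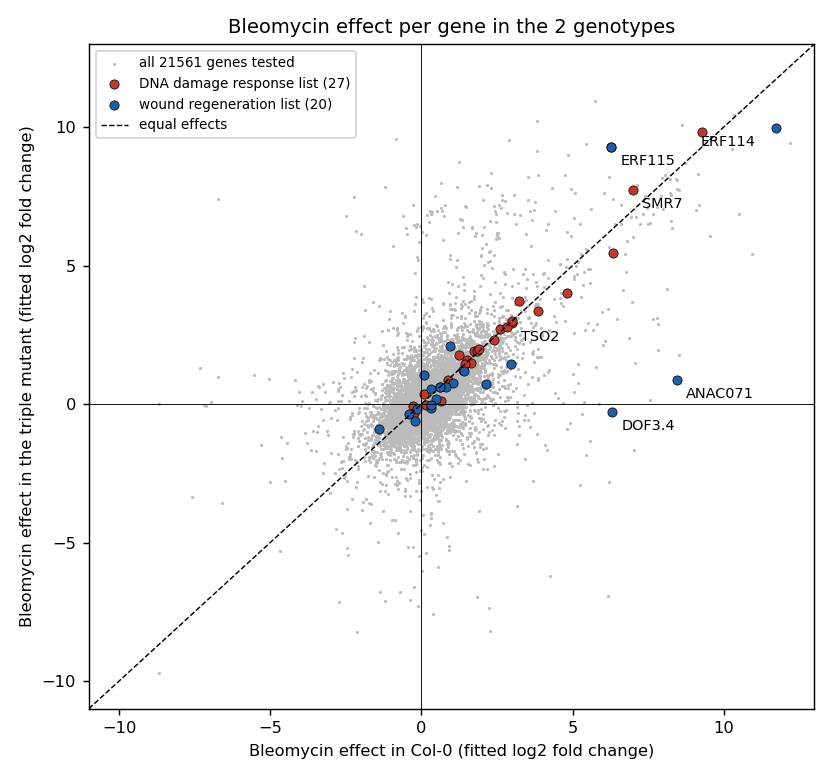
The log2 bleomycin effect in the triple mutant and in Col-0, bleomycin over control, for the 21561 genes tested. Grey points are all genes and coloured points are the measured members of the DNA damage response list (27) and the wound and regeneration list (20); points on the diagonal have an interaction of 0, and values of genes with 3 or fewer reads in a group depend on the prior count.

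Most genes of the SOG1-type DNA damage response rose in both genotypes. Of 27 listed genes, 22 rose in bleomycin-treated triple mutants (4.2% of all genes rose) and 23 rose in bleomycin-treated Col-0 (4.29% of all genes rose), and 0 fell in either. Their median effect was 1.91 in the triple mutant and 1.83 in Col-0, against 0.03 and 0.01 over all genes tested. The median interaction was 0.00, and over the 25 members with more than 3 reads in every group it was -0.01 with a range of -0.89 to 0.72. Of the 27 intervals, 17 lay within ±1, and edgeR called 0 members in the interaction with 1 at an unadjusted p under 0.05. That member was WEE1, a kinase that delays mitosis, with an interaction of -0.53 (95% interval -1.04 to -0.01, unadjusted p of 0.0457). Under the 22 alternative settings the number that rose was 18 to 22 in the triple mutant and 18 to 23 in Col-0, and 0 members were called in the interaction in any of them.

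Of genes of nucleotide supply and repair chosen after their values were seen, TSO2, PARP2, XRI1, RNR1, BRCA1 and GMI1 rose in both genotypes. TSO2, a small subunit of ribonucleotide reductase, had 581, 458 and 421 CPM in bleomycin-treated triple mutants, against 64.3, 59.5 and 69.7 CPM in triple mutant controls. For the wild type, values were 546, 454 and 433 CPM in bleomycin-treated Col-0, against 58.7, 55.9 and 65.8 CPM in Col-0 controls. Every bleomycin library lay above every control library, and within each medium the ranges of the genotypes overlapped. TSO2 rose by 2.92 (SE 0.15, adjusted p = 8.16e-07) in the triple mutant and 2.99 (SE 0.15, adjusted p = 3.59e-07) in Col-0 on the log2 scale (edgeR), and its interaction was -0.07 (95% interval -0.49 to 0.34, unadjusted p of 0.705). PARP2, a poly(ADP-ribose) polymerase that marks breaks, had 136, 154 and 102 CPM in bleomycin-treated triple mutants, against 18.7, 17.4 and 13.3 CPM in triple mutant controls. Its Col-0 levels were 136, 147 and 106 CPM in bleomycin-treated Col-0, against 18.3, 14.9 and 15.1 CPM in Col-0 controls. The genotypes overlapped within each medium for PARP2 too, and the interaction was -0.02 (95% interval -0.56 to 0.53, unadjusted p of 0.947). The meiosis and repair factor XRI1 gave -0.02 (95% interval -0.58 to 0.53, unadjusted p of 0.924), the ribonucleotide reductase large subunit RNR1 0.02 (95% interval -0.35 to 0.39, unadjusted p of 0.911) and the repair ubiquitin ligase BRCA1 0.50 (95% interval -0.24 to 1.24, unadjusted p of 0.167). GMI1, an SMC-like protein known for gamma-irradiation induction, had 76.9, 75.5 and 52.4 CPM in bleomycin-treated triple mutants, against 2.74, 6.22 and 3.67 CPM in triple mutant controls. It had 89, 74.2 and 53.5 CPM in bleomycin-treated Col-0, against 3.49, 2.39 and 1.81 CPM in Col-0 controls, and its interaction was -0.80 (95% interval -1.72 to 0.12, unadjusted p of 0.0828). Its bleomycin ranges overlapped between the genotypes. The effects of TSO2, PARP2, XRI1, BRCA1 and GMI1 in each genotype kept their calls under all 22 alternatives.

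SMR7 and SMR5, inhibitors of cyclin-dependent kinases of the SIAMESE-RELATED family, were higher after bleomycin in both genotypes. SMR7, a known SOG1 target, had 57.9, 53.5 and 39.4 CPM in bleomycin-treated triple mutants, against 0.314, 0.39 and 0 CPM in triple mutant controls. Its levels in Col-0 were 50.5, 62.1 and 40.2 CPM in bleomycin-treated Col-0, against 0.466, 0.43 and 0.277 CPM in Col-0 controls. It rose by 7.74 (SE 0.48, adjusted p = 2.26e-06) in the triple mutant and 7.01 (SE 0.45, adjusted p = 2.89e-06) in Col-0 by edgeR, with an interaction of 0.72 (95% interval -0.73 to 2.18, unadjusted p of 0.304), and 0.12 without triple mutant control 3 (unadjusted p of 0.785). SMR5 had 0 reads in every control of both genotypes and 3.38, 3.65 and 1.73 CPM in bleomycin-treated triple mutants, against 2.2, 2.4 and 1.4 CPM in bleomycin-treated Col-0. Set against a floor of 3 reads over the 3 control libraries, SMR5 was at least 109-fold higher after bleomycin in the triple mutant and at least 78.9-fold higher in Col-0. The transcription factor ANAC044, known to be needed for the arrest of division after DNA damage, gave an interaction of -0.52 (95% interval -1.98 to 0.94, unadjusted p of 0.456), and -0.75 without triple mutant control 3 (unadjusted p of 0.307). SOG1 itself, which is activated by phosphorylation, gave -0.08 (95% interval -0.62 to 0.47, unadjusted p of 0.764). Over all 21 CDK inhibitor genes, 5 rose and 1 fell in each genotype (4.2% of all genes rose and 3.81% fell in the triple mutant, 4.29% and 2.46% in Col-0). In the triple mutant 2 rose without triple mutant bleomycin 1 or 2 or control 1, and 3 without triple mutant control 2, Col-0 bleomycin 3 or Col-0 control 2. In Col-0 3 rose without Col-0 bleomycin 1, 2 or 3 or control 2 or 3. The median interaction was -0.23, and 0 had an unadjusted p under 0.05 in the interaction. SIM, the founding member of the family, had the smallest p among them, with -0.33 (95% interval -0.71 to 0.06, unadjusted p of 0.0924).

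**Figure D2:**
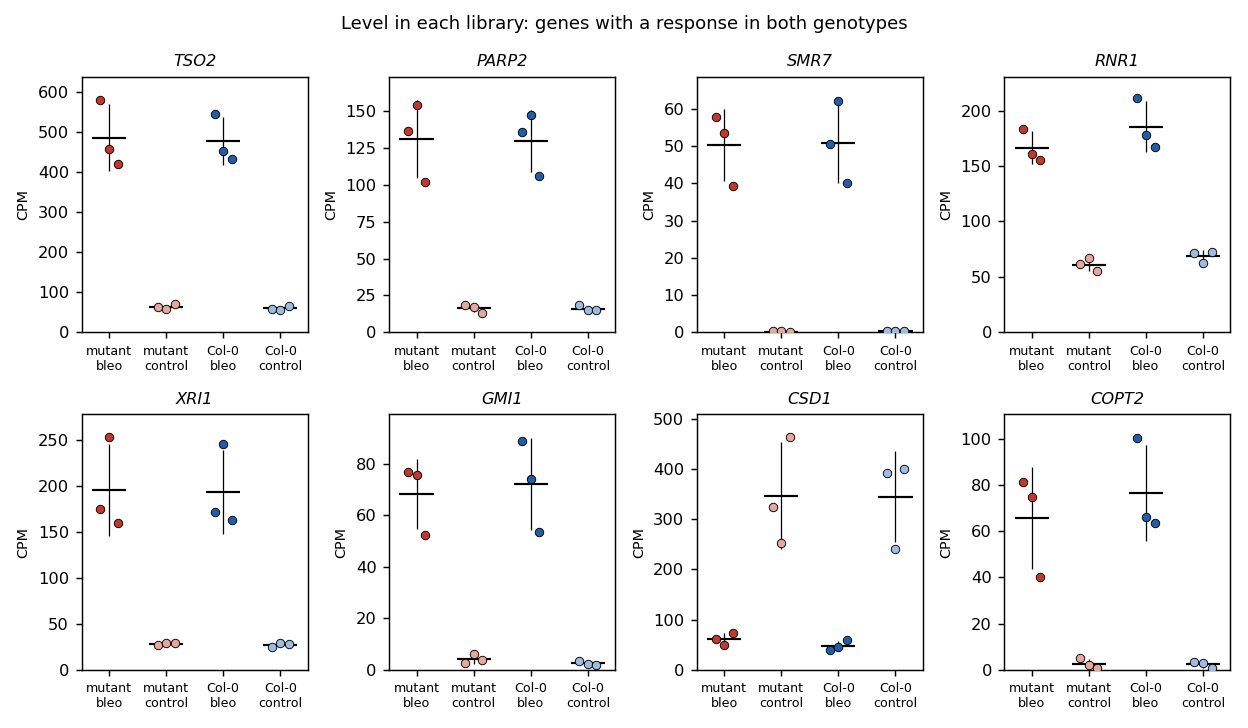
Levels in CPM per library of 8 genes called for bleomycin in both genotypes (TSO2, PARP2, SMR7, RNR1, XRI1, GMI1, CSD1, COPT2), with the triple mutant left of Col-0 and bleomycin left of control; points are libraries, lines are means and bars are SD (n = 3), drawn no lower than 0. For TSO2 the bleomycin libraries span 421 to 581 CPM in the triple mutant and 433 to 546 CPM in Col-0.

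**Figure D3:**
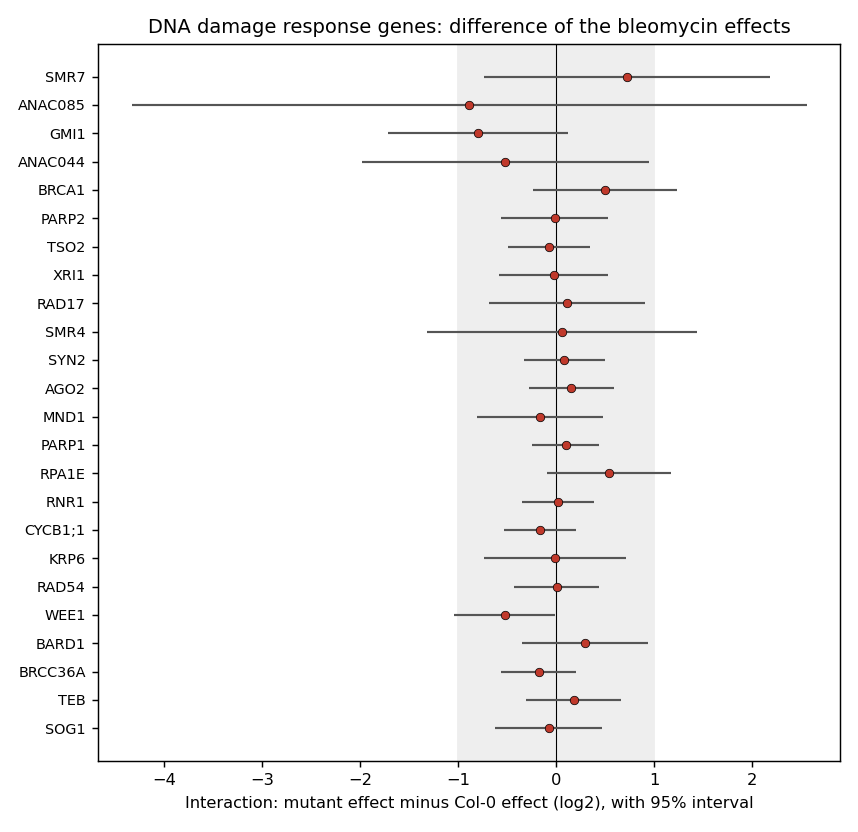
The interaction (triple mutant effect minus Col-0 effect, log2) with its 95% interval for 24 members of the DNA damage response list, ordered by their average bleomycin effect; the grey band marks ±1, and ERF115 and SMR5 are left out because a group had 3 or fewer reads. The values lie on both sides of 0, between -0.89 and 0.72.

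Promoter sequences are shown for the motif known for SOG1 binding, CTT, then 7 bases of any kind, then AAG, a palindrome that reads the same on both strands and overlaps no other motif searched. In the 250 bases before the annotated start, the motif was found in 8 of the 27 listed genes (29.6%), in 0 of the 20 wound and regeneration genes and in 1986 of 21456 promoters of genes tested (9.26%). Sequences are from the RefSeq TAIR10.1 genome, on the gene's own strand, 5′ to 3′, with the fixed letters of the motif in capitals. A match is a description of the letters only, and its absence says only that these letters are not in this window. The listed genes were chosen as genes of the SOG1-type response, so their share is not a test of the motif. Among the windows with a match, those of SMR5, TEB and RAD54 overlap another gene. SMR7, PARP2 and ANAC044 stand for the listed genes with a match, UGT76D1 for a match outside the list, and DOF3.4 for a gene without a match. TSO2, RNR1, XRI1, BRCA1 and GMI1, which also rose in both genotypes, had no match in this window.
SMR7 (chr3:10231568-10231817, minus strand): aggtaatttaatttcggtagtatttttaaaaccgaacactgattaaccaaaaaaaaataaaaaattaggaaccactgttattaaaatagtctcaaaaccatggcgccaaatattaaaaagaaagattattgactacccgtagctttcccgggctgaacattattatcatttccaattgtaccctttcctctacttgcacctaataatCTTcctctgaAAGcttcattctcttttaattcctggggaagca
PARP2 (chr4:1049516-1049765, plus strand): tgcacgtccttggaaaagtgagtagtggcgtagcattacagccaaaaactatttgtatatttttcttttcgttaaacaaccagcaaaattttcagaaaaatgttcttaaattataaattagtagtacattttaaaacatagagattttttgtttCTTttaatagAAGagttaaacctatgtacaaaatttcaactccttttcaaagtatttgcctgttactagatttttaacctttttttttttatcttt
ANAC044 (chr3:228825-229074, plus strand): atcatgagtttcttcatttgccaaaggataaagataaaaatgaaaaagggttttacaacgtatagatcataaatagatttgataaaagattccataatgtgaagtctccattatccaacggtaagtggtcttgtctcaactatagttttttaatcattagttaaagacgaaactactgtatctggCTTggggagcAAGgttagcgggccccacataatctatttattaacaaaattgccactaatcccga
UGT76D1 (chr2:11263639-11263888, plus strand): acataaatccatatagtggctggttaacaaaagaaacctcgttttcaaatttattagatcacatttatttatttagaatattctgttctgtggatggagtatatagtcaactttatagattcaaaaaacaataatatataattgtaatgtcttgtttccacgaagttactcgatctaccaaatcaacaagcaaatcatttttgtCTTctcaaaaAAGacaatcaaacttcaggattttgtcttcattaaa
DOF3.4 (chr3:18709363-18709612, plus strand): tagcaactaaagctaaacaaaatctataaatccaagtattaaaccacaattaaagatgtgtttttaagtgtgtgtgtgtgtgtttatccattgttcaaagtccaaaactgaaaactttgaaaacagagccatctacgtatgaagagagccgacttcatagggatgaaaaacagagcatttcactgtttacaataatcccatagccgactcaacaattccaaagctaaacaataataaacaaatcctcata

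The wound and regeneration list had more calls in Col-0 than in the triple mutant, but no member was called in the interaction. The difference between the counts was not tested. Of 20 measured members of 24 listed, 4 rose and 1 fell after bleomycin in the triple mutant (median 0.63) and 7 rose in Col-0 (median 0.72). Of all genes tested, 4.2% rose and 3.81% fell in the triple mutant, and 4.29% rose in Col-0. The median interaction was -0.25, and over the 16 members with more than 3 reads in every group it was -0.22 with a range of -1.50 to 1.16. edgeR called 0 members in the interaction, and 2 had an unadjusted p under 0.05, both lower. Under the alternatives the median interaction ranged from -0.35 to -0.05, the number that rose from 2 to 5 in the triple mutant and from 4 to 9 in Col-0. Without triple mutant control 3, 3 rose in the triple mutant and 8 in Col-0, with a median interaction of -0.12. Only 2 rose in the triple mutant without triple mutant bleomycin 2 or control 2, and only 4 rose in Col-0 without Col-0 bleomycin 1 or 2 or control 2 or 3.

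DOF3.4 (AT3G50410, chr3:18709613-18710836) was the member of this list with the smallest interaction p, and lies 35 bases from AT3G50420 on the other strand. It had 13, 5 and 11 reads in bleomycin-treated triple mutants (0.357, 0.123 and 0.276 CPM), against 12, 22 and 0 reads in triple mutant controls (0.343, 0.573 and 0 CPM). In Col-0 it had 45, 89 and 52 reads after bleomycin (1.13, 2.25 and 1.4 CPM), against 2, 0 and 0 reads on control medium (0.0491, 0 and 0 CPM). After bleomycin every triple mutant library lay below every Col-0 library, and the triple mutant's bleomycin and control ranges overlapped. The interaction p was 0.00396 unadjusted and 1 adjusted (edgeR), rank 16 of 21561 genes, with an unadjusted range of 0.000209 to 0.0252 over the alternatives. Without triple mutant control 3 it was 0.000209. In Col-0 the ratio of bleomycin over control was 93.7 (counting interval 25.6 to 779, counting error only), with an adjusted p of 0.0291. That call was lost without Col-0 bleomycin 1, 2 or 3 or Col-0 control 2 or 3, in that order, at adjusted p = 0.0663, 0.0695, 0.053, 0.134 and 0.115. In the triple mutant the adjusted p was 0.909.

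ERF115 (AT5G07310, chr5:2305551-2306837) was called in both genotypes. It had 1.54, 3.14 and 1.33 CPM in bleomycin-treated triple mutants, against 0 CPM in all 3 triple mutant controls. Wild-type libraries held 6.79, 10.9 and 2.98 CPM in bleomycin-treated Col-0, against 0.0491, 0.0807 and 0.126 CPM in Col-0 controls, the control values being 2, 3 and 5 reads. Bleomycin libraries of the triple mutant reached from 1.33 to 3.14 CPM, overlapping the Col-0 range of 2.98 to 10.9 CPM. Against a floor of 3 reads over the group, ERF115 was at least 75.6-fold higher after bleomycin in the triple mutant (adjusted p = 0.000782), a call lost with limma voom at adjusted p = 0.0634. In Col-0 it rose by 6.28 (SE 0.71, adjusted p = 0.000683) on the log2 scale by edgeR. The interaction p by edgeR was 0.0546 unadjusted, 0.0274 to 0.694 over the alternatives and 0.121 without triple mutant control 3. The fitted sign by edgeR was positive, a larger fold change in the triple mutant, whose controls were all at 0 CPM. That p therefore does not stand for a smaller ERF115 response in the triple mutant, and no size is given. ERF114, an ERF closely related to ERF115, had 0 reads in every control. It had 3.57, 3.51 and 2.64 CPM in bleomycin-treated triple mutants, against 11, 15.2 and 6.68 CPM in bleomycin-treated Col-0. The genotypes did not overlap: every triple mutant library lay below every Col-0 library. The log2 genotype difference in bleomycin was -1.76 with an unadjusted p of 0.00132 and an adjusted p of 1.00 by edgeR. Bleomycin raised ERF114 at least 121-fold in the triple mutant (adjusted p = 0.000196) and at least 433-fold in Col-0 (adjusted p = 4.77e-05), both against the floor. With both controls at 0, its interaction has no size here.

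Neither of the NAC factors ANAC071 and ANAC096 was called for genotype in bleomycin. ANAC071, needed for the rejoining of cut stems, had 0.192, 0 and 0.201 CPM in bleomycin-treated triple mutants, against 0, 0 and 0.207 CPM in triple mutant controls. Values in Col-0 were 1.7, 1.42 and 0.295 CPM in bleomycin-treated Col-0, against 0 CPM in all 3 Col-0 controls. Its interaction p was 0.0202 unadjusted by edgeR. The 0.207 CPM of triple mutant control 3 is the only control signal. Without that library both controls are at 0, so the interaction cannot be measured and no p is given. ANAC096 had 2.74, 2.99 and 2.61 CPM in bleomycin-treated triple mutants, against 2.66, 1.67 and 0.672 CPM in triple mutant controls. The Col-0 levels were 9.34, 9.92 and 4.67 CPM in bleomycin-treated Col-0, against 2.14, 2.29 and 1.01 CPM in Col-0 controls. Bleomycin-treated triple mutants lay below every bleomycin-treated Col-0 library, and the interaction was -1.40 (95% interval -2.84 to 0.05, unadjusted p of 0.0566), and -1.78 without triple mutant control 3 (unadjusted p of 0.00789). ANAC096 rose in Col-0 by 2.14 (SE 0.48, adjusted p = 0.0226) by edgeR, a call lost without Col-0 bleomycin 1 or 2 or control 2 or 3 (adjusted p = 0.0744, 0.0648, 0.075 and 0.0987). PLT3, a regulator of root stem cells and of regeneration, gave -0.39 (95% interval -0.87 to 0.08, unadjusted p of 0.0983). It had 38.3, 43.4 and 53.3 CPM in bleomycin-treated triple mutants, against 56.5, 81.8 and 65.3 CPM in triple mutant controls, and 74, 74.6 and 70.8 CPM in bleomycin-treated Col-0, against 71, 90.4 and 90.6 CPM in Col-0 controls. The heat-shock factor HSFB1 gave -0.28 (95% interval -0.83 to 0.27, unadjusted p of 0.293), the wound-responsive ERF RAP2.6L -0.21 (95% interval -0.66 to 0.24, unadjusted p of 0.336), the phytosulfokine precursor PSK5 -0.23 (95% interval -1.31 to 0.86, unadjusted p of 0.659) and WIND1, which promotes callus at wounds, -0.29 (95% interval -0.72 to 0.14, unadjusted p of 0.171). HSFB1 and RAP2.6L rose in both genotypes. The HSFB1 call in the triple mutant was lost without triple mutant bleomycin 1 or 2 or control 2 or 3 (adjusted p = 0.0852, 0.0897, 0.0944 and 0.082), and that of RAP2.6L without triple mutant bleomycin 2 or control 1 or 2 (adjusted p = 0.0965, 0.0629 and 0.0903). ANAC071, ANAC096, PLT3, HSFB1, RAP2.6L, PSK5 and WIND1 were chosen after their values were seen.

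**Figure D4:**
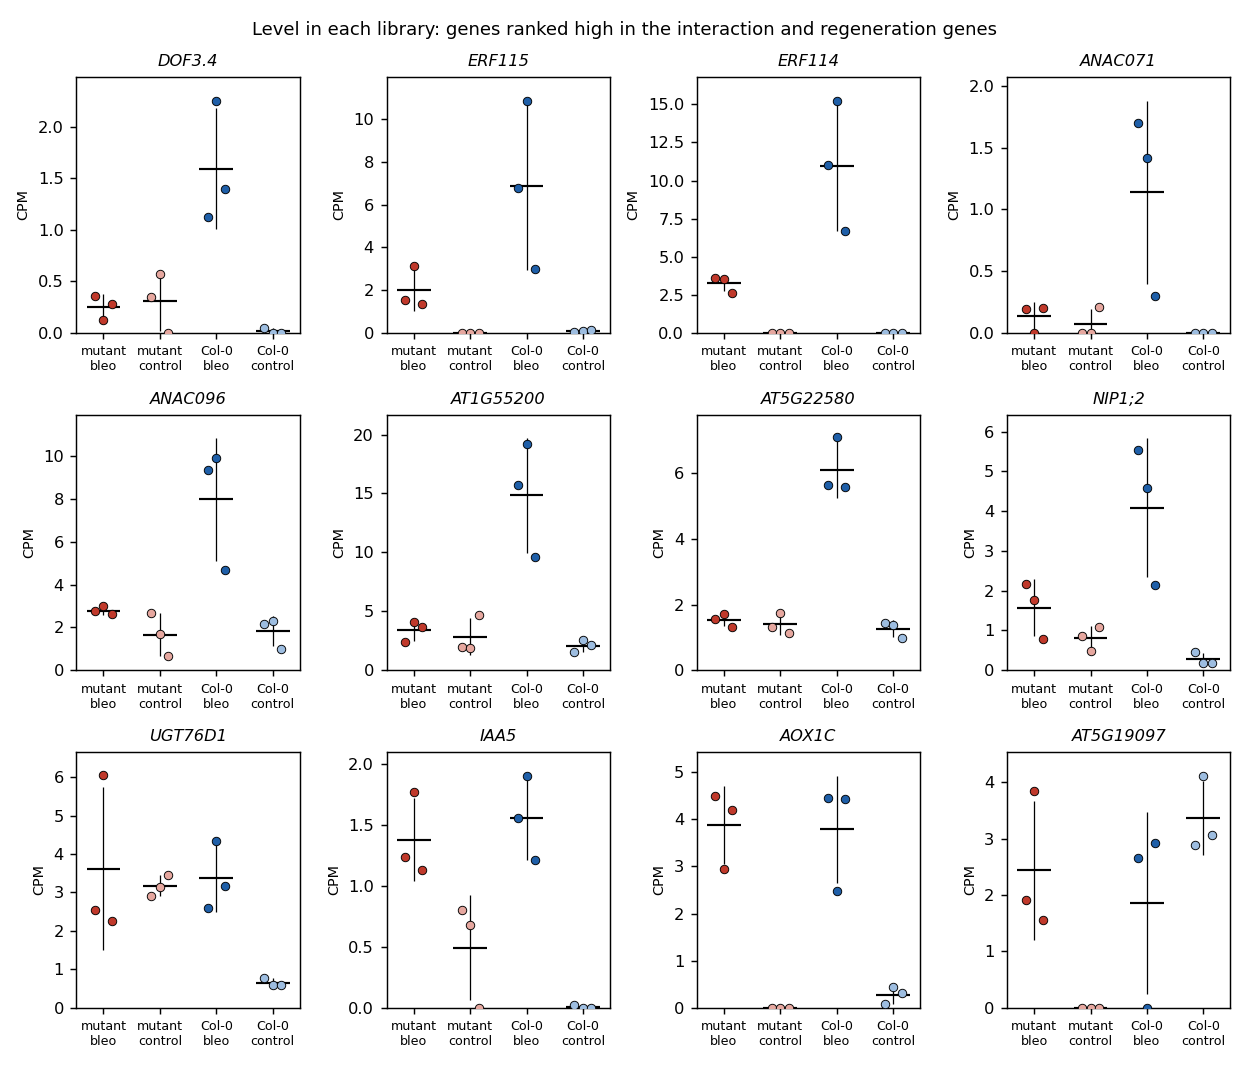
Levels in CPM per library of 12 genes that had small unadjusted interaction p-values or belong to the regeneration genes, with the triple mutant left of Col-0 and bleomycin left of control; points are libraries, lines are means and bars are SD (n = 3), drawn no lower than 0. None was called in the interaction; for AT1G55200 the bleomycin libraries span 2.39 to 4.09 CPM in the triple mutant and 9.58 to 19.2 CPM in Col-0.

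Outside the lists, 6 genes in each direction with the smallest unadjusted interaction p and a mean of at least 1 CPM are given, none of them called. As they were picked by that p, separation of their groups is description only. How often groups separate over all genes tested was not counted. Of the 6 genes with a lower interaction, a bleomycin effect in Col-0 was called for AT1G55200, AT5G22580, AT3G55720, UGT76D1 and NIP1;2. AT1G55200 (chr1:20589129-20593000), a predicted protein kinase, had 2.39, 4.09 and 3.67 CPM in bleomycin-treated triple mutants, against 2.00, 1.87 and 4.66 CPM in triple mutant controls. For the wild type, values were 15.7, 19.2 and 9.58 CPM in bleomycin-treated Col-0, against 1.55, 2.53 and 2.12 CPM in Col-0 controls. Only the bleomycin-treated Col-0 libraries stood out, above all 9 others. Its interaction was -2.60 (95% interval -3.79 to -1.41, unadjusted p of 0.00041) with an adjusted p of 1 by edgeR, and the lowest over the alternatives was 0.105, by DESeq2. The gene overlaps PRA7 by 70 bases. Since the library kit is named without a strand-marking version, reads of the overlap cannot be told apart. The same limit applies to other named genes that overlap a neighbour on the other strand, among them SMR5, PLT3, SIM and CYCD6;1. AT5G22580 (chr5:7502427-7503463), a stress-responsive A/B barrel protein, had 1.56, 1.72 and 1.33 CPM in bleomycin-treated triple mutants, against 1.31, 1.74 and 1.14 CPM in triple mutant controls. Col-0 libraries gave 5.66, 7.11 and 5.58 CPM in bleomycin-treated Col-0, against 1.45, 1.37 and 0.983 CPM in Col-0 controls. Again bleomycin-treated Col-0 lay above all 9 other libraries, and the interaction was -2.13 (95% interval -3.13 to -1.13, unadjusted p of 0.000503). NIP1;2, an aquaporin that carries aluminium malate in Arabidopsis, had 2.17, 1.76 and 0.778 CPM in bleomycin-treated triple mutants, against 0.857, 0.494 and 1.09 CPM in triple mutant controls. Its levels in Col-0 were 5.53, 4.58 and 2.15 CPM in bleomycin-treated Col-0, against 0.466, 0.188 and 0.176 CPM in Col-0 controls, and its interaction was -2.92 (95% interval -4.70 to -1.13, unadjusted p of 0.00374). Bleomycin ranges of the genotypes overlapped at 2.15 to 2.17 CPM.

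For UGT76D1 and AT3G55720 the triple mutant controls lay above the Col-0 controls, though neither gene was called for genotype on control medium. UGT76D1, a glycosyltransferase of dihydroxybenzoic acids, had 2.55, 6.06 and 2.26 CPM in bleomycin-treated triple mutants, against 2.91, 3.15 and 3.47 CPM in triple mutant controls. Wild-type libraries held 2.6, 4.33 and 3.17 CPM in bleomycin-treated Col-0, against 0.786, 0.592 and 0.58 CPM in Col-0 controls. Its bleomycin ranges overlapped, and the interaction was -2.17 (95% interval -3.42 to -0.92, unadjusted p of 0.00249). AT3G55720 had 19.5, 14.6 and 11.8 CPM in bleomycin-treated triple mutants, against 21.2, 14.7 and 18.8 CPM in triple mutant controls, and 16.9, 14 and 20.1 CPM in bleomycin-treated Col-0, against 8.37, 9.09 and 7.94 CPM in Col-0 controls. Its interaction was -1.26 (95% interval -1.88 to -0.63, unadjusted p of 0.000801). The AT3G55720 call in Col-0 (adjusted p = 0.0146) was lost without Col-0 control 2 or 3 at adjusted p = 0.0581 and 0.0725. WRKY17, a repressor of basal defence, gave -0.58 (95% interval -0.94 to -0.22, unadjusted p of 0.00381). It had 98.2, 87.5 and 86 CPM in bleomycin-treated triple mutants, against 98.9, 102 and 112 CPM in triple mutant controls, and 87.2, 98.8 and 113 CPM in bleomycin-treated Col-0, against 84.5, 71.5 and 73 CPM in Col-0 controls. Of genes chosen after their values were seen, the lipase gene MPL1 gave -1.25 (95% interval -2.03 to -0.48, unadjusted p of 0.00402) and the invertase inhibitor relative AT5G62350 gave -0.84 (95% interval -1.36 to -0.32, unadjusted p of 0.00394). MPL1 had 7.11, 7.43 and 6.38 CPM in bleomycin-treated triple mutants, against 4.46, 5.65 and 3.88 CPM in triple mutant controls, and 24.5, 23 and 12.7 CPM in bleomycin-treated Col-0, against 7.0, 4.76 and 5.14 CPM in Col-0 controls. Its bleomycin-treated triple mutants lay below all bleomycin-treated Col-0 libraries.

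Genes with a higher interaction showed other arrangements of the groups. AOX1C, an alternative oxidase of mitochondria, had 4.5, 2.94 and 4.19 CPM in bleomycin-treated triple mutants, against 0 CPM in all 3 triple mutant controls. Values in Col-0 were 4.46, 2.48 and 4.43 CPM in bleomycin-treated Col-0, against 0.0736, 0.43 and 0.302 CPM in Col-0 controls. Bleomycin ranges overlapped and the control groups did not, with an interaction p of 0.000451 unadjusted and 1 adjusted. AOX1C lies 185 bases from SMR7 on the same strand. Bleomycin raised it at least 144-fold against the floor in the triple mutant (adjusted p = 0.000288) and by 3.81 (SE 0.61, adjusted p = 0.00582) on the log2 scale in Col-0. AT5G19097 had 1.92, 3.85 and 1.56 CPM in bleomycin-treated triple mutants, against 0 CPM in all 3 triple mutant controls. The Col-0 levels were 2.65, 0 and 2.92 CPM in bleomycin-treated Col-0, against 2.9, 4.12 and 3.07 CPM in Col-0 controls. It was at 0 in all triple mutant controls and in Col-0 bleomycin 2 alone among the other 9 libraries, with an unadjusted p of 0.000804. AT3G19680 gave 1.09 (95% interval 0.47 to 1.71, unadjusted p of 0.00224), AT4G18670 0.65 (95% interval 0.27 to 1.03, unadjusted p of 0.00266), LGT8 0.64 (95% interval 0.26 to 1.01, unadjusted p of 0.00292) and AT2G46780 0.65 (95% interval 0.24 to 1.06, unadjusted p of 0.00475). AT4G18670, annotated as a leucine-rich repeat protein, had 62.4, 62.5 and 66.8 CPM in bleomycin-treated triple mutants, against 49.4, 47.5 and 35.6 CPM in triple mutant controls, and 60.7, 54 and 53.3 CPM in bleomycin-treated Col-0, against 60.6, 63.4 and 58.1 CPM in Col-0 controls. The triple mutant bleomycin and control libraries did not overlap. By edgeR, its bleomycin call in the triple mutant was lost without bleomycin 1, 2 or 3 or control 2 or 3 of that genotype. The adjusted p-values were 0.0693, 0.0629, 0.0578, 0.0537 and 0.062, in that order. LGT8, annotated as a glycosyltransferase, had 36.6, 33.7 and 37.9 CPM in bleomycin-treated triple mutants, against 25.9, 31.4 and 24.5 CPM in triple mutant controls, and 33.3, 33.5 and 33.3 CPM in bleomycin-treated Col-0, against 36.9, 36.3 and 44.3 CPM in Col-0 controls. Here too the groups did not overlap within a genotype: bleomycin was the higher in the triple mutant and the lower in Col-0. The bleomycin effect of LGT8 had an adjusted p of 0.0627 in the triple mutant and 0.272 in Col-0.

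The strongest responders on average were given by rule with their interactions. The 8 higher were SMR7, COPT2, FRO5, AT4G22960, AT5G60250, AT1G20750, ABCA10 and AT1G58889, and the 4 lower were CSD1, CSD2, ATGSTF13 and ENODL13. AT4G22960 had 46.3, 52.4 and 38 CPM in bleomycin-treated triple mutants, against 1.29, 1.43 and 1.86 CPM in triple mutant controls. For the wild type, values were 45.8, 46 and 34 CPM in bleomycin-treated Col-0, against 1.28, 0.726 and 0.63 CPM in Col-0 controls, and its interaction was -0.68 (95% interval -1.41 to 0.06, unadjusted p of 0.0695). COPT2, a copper importer induced by copper shortage, had 81.3, 75 and 40.3 CPM in bleomycin-treated triple mutants, against 5.0, 2.24 and 0.802 CPM in triple mutant controls. Col-0 libraries gave 100.3, 66 and 63.4 CPM in bleomycin-treated Col-0, against 3.49, 2.85 and 0.554 CPM in Col-0 controls, with an interaction of -0.44 (95% interval -2.16 to 1.29, unadjusted p of 0.594). CSD1, a copper/zinc superoxide dismutase, had 61.4, 49.2 and 72.9 CPM in bleomycin-treated triple mutants, against 324, 253 and 463 CPM in triple mutant controls. Its levels in Col-0 were 39.1, 45.4 and 59 CPM in bleomycin-treated Col-0, against 393, 240.3 and 401 CPM in Col-0 controls, with an interaction of 0.35 (95% interval -0.41 to 1.10, unadjusted p of 0.342). For COPT2 and CSD1 the genotypes overlapped within each medium. CSD2 gave 0.33 (95% interval -0.22 to 0.87, unadjusted p of 0.216), the copper reductase FRO5 -0.54 (95% interval -3.54 to 2.46, unadjusted p of 0.704), AT5G60250 -0.91 (95% interval -2.44 to 0.62, unadjusted p of 0.221), AT1G58889 0.41 (95% interval -3.26 to 4.08, unadjusted p of 0.812), ATGSTF13 1.08 (95% interval -0.23 to 2.40, unadjusted p of 0.0974) and ENODL13 -0.32 (95% interval -1.82 to 1.17, unadjusted p of 0.65). The helicase-like gene AT1G20750 and the transporter gene ABCA10 had a group with 3 or fewer reads and get no size, with unadjusted p-values of 0.0485 and 0.200. Without triple mutant control 3 the p of AT1G20750 was 0.729, and the interactions were -0.88 for COPT2 (unadjusted p of 0.248), -1.14 for FRO5 (unadjusted p of 0.353) and -0.18 for AT1G58889 (unadjusted p of 0.914). The FRO5 call was lost in the triple mutant without triple mutant control 2 (adjusted p = 0.0611) and in Col-0 without Col-0 control 2 (adjusted p = 0.0607). Among 18 copper and superoxide genes, 6 rose and 4 fell in the triple mutant, 7 rose and 4 fell in Col-0 (4.2% of all genes rose and 3.81% fell in the triple mutant, 4.29% and 2.46% in Col-0), and the median interaction was 0.00. Without triple mutant control 2, 4 rose in the triple mutant, and without Col-0 control 2, 4 rose in Col-0. Its member with the smallest p was the copper importer COPT1, with -0.36 (95% interval -0.82 to 0.11, unadjusted p of 0.122).

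Cell division genes did not pass the interaction test. Among 35 mitosis and cytokinesis genes the median effect was -0.41 in the triple mutant and -0.42 in Col-0, 1 rose and 1 fell in the triple mutant, 1 rose and 2 fell in Col-0, and 27 interaction intervals lay within ±1. Of all genes tested, 4.2% rose and 3.81% fell in the triple mutant, and 4.29% rose and 2.46% fell in Col-0. These shares apply to every list of this paragraph. The number that fell in the triple mutant was 0 without triple mutant bleomycin 1 or 2 or control 2 or 3 and 4 without triple mutant bleomycin 3. In Col-0 it was 0 without Col-0 bleomycin 1 or control 2 and 7 without Col-0 bleomycin 3. With the replicate number as a block, 10 fell in the triple mutant and 11 in Col-0. All alternatives together gave 0 to 15 that fell in each genotype. Endodermis genes had medians of 0.70 in the triple mutant and 0.69 in Col-0, with 6 of 9 rising on average over the genotypes (12.9% of all genes did), and their part in the mitosis medians was not tested. The kinesin POK1, which guides the division plane, had the smallest p, with 0.52 (95% interval -0.01 to 1.05, unadjusted p of 0.0539). Cell-cycle transcription factors (14 genes, median interaction 0.08) were led by the atypical E2F DEL1 at 0.25 (95% interval -0.26 to 0.77, unadjusted p of 0.308). DNA replication genes (27 genes, 0.12, 3 rose in the triple mutant, 3 rose and 1 fell in Col-0) were led by the licensing factor CDC6A at 0.38 (95% interval -0.07 to 0.82, unadjusted p of 0.0906). D-type cyclins (9 genes, -0.03) were led by CYCD6;1 at -0.73 (95% interval -1.84 to 0.38, unadjusted p of 0.176). CYCD3;3, a cyclin of the G1 to S step, had 22.3, 20.1 and 26.1 CPM in bleomycin-treated triple mutants, against 29.6, 34.2 and 30.7 CPM in triple mutant controls. Wild-type libraries held 21.1, 27 and 25.2 CPM in bleomycin-treated Col-0, against 26, 31.2 and 37.4 CPM in Col-0 controls, and its interaction was -0.09 (95% interval -0.57 to 0.38, unadjusted p of 0.679). In the stem cell niche list (15 genes, 0.11) ARF10 led at -0.28 (95% interval -0.61 to 0.06, unadjusted p of 0.0947), and among recombination and end-joining genes (23 genes, 0.02) KU70, which binds broken ends, gave -0.41 (95% interval -0.76 to -0.07, unadjusted p of 0.0208). Of those 23, 2 rose and 1 fell in the triple mutant (median -0.03) and 3 rose in Col-0 (median -0.08), 1 without Col-0 control 2. Of 30 GRAS genes the median was -0.03, 0 rose and 5 fell in the triple mutant, 1 rose and 3 fell in Col-0, and the DELLA gene RGL1 led at -0.68 (95% interval -1.47 to 0.10, unadjusted p of 0.0836). The 30 include the targeted SCL5 and SCL21, which had 3 or fewer reads in each triple mutant group. Over the 28 others the median was also -0.03. The number of GRAS genes that fell in the triple mutant was 1 to 3 with any 1 triple mutant library left out and 2 without Col-0 bleomycin 3 or control 2. In Col-0 it was 0 without Col-0 bleomycin 1 or control 2 or 3, and 2 without Col-0 bleomycin 2 or triple mutant control 1. Of 16 DOF genes the median was 0.00, 1 rose in each genotype (0 to 1 over the alternatives), and 2 (DOF3.4 and TMO6) had an unadjusted p under 0.05.

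Hormone genes included several with lower interaction values. IAA5, an early auxin-response repressor, had 1.24, 1.76 and 1.13 CPM in bleomycin-treated triple mutants, against 0.800, 0.677 and 0 CPM in triple mutant controls. Values in Col-0 were 1.55, 1.9 and 1.21 CPM in bleomycin-treated Col-0, against 0.0245, 0 and 0 CPM in Col-0 controls, the control signal being 1 read. Bleomycin ranges overlapped between the genotypes, while 2 of 3 triple mutant controls lay above all Col-0 controls and triple mutant control 3 had 0 reads. Its interaction p was 0.00663 unadjusted, 5.9e-05 without triple mutant control 3 and 0.112 at most over the alternatives. The median interaction of the 29 auxin genes was -0.19, with 2 rose and 2 fell in the triple mutant (4.2% and 3.81% of all genes) and 5 rose and 1 fell in Col-0 (4.29% and 2.46% of all genes). In the triple mutant 0 rose without triple mutant bleomycin 1 or 2 or control 1 or 2, and 0 fell without triple mutant bleomycin 1 or 2 or control 2 and 1 without control 3. The Col-0 count of 5 became 0 with Col-0 control 2 or 3 left out, 2 with bleomycin 1 of that genotype left out and 3 with its bleomycin 2 left out. The median of 21 cytokinin genes was -0.27, with 0 rose and 1 fell in the triple mutant (0 to 2 over the alternatives) and 0 calls in Col-0 (0 to 3 higher over the alternatives), and the type-A response regulator ARR7 led at -2.77 (95% interval -5.19 to -0.34, unadjusted p of 0.0284). Jasmonate genes (17 genes, 0.07, 0 calls in each genotype) were led by the repressor JAZ9 at -0.72 (95% interval -1.85 to 0.40, unadjusted p of 0.188). Ethylene genes (14 genes, -0.08, 2 rose in the triple mutant and 1 in Col-0, over the alternatives 1 to 2 and 0 to 4) were led by the ACC synthase ACS11 at 1.17 (95% interval -0.11 to 2.46, unadjusted p of 0.0699).

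Detoxification genes had 3 of 18 that rose in the triple mutant (median 0.41, 4.2% of all genes) and 7 of 18 in Col-0 (median 0.63, 4.29% of all genes), and their median interaction was -0.28. The Col-0 count was 4 when Col-0 bleomycin 3 was left out and 2 when Col-0 control 2 or 3 was, and the triple mutant count was 2 to 3 without any 1 library. An interaction above 0 was found for 2 of the 18, against 10679 of 21561 genes tested. edgeR called 0 of them in the interaction, and 2 had an unadjusted p under 0.05, both lower, led by the glutathione transferase GSTF6 at -1.50 (95% interval -2.73 to -0.27, unadjusted p of 0.0204). GSTU22, chosen after its values were seen, rose in both genotypes: it had 307, 297 and 259.5 CPM in bleomycin-treated triple mutants, against 141, 148 and 161 CPM in triple mutant controls, and 314, 256 and 304 CPM in bleomycin-treated Col-0, against 158, 99.8 and 115 CPM in Col-0 controls. Its interaction was -0.29 (95% interval -0.76 to 0.18, unadjusted p of 0.21). Camalexin and salicylate defence genes (10 genes, -0.36) were led by the defence regulator PAD4 at -0.38 (95% interval -0.91 to 0.16, unadjusted p of 0.153). Cell death genes (10 genes, -0.15) were led by EXI1 at -0.42 (95% interval -1.20 to 0.37, unadjusted p of 0.27), iron genes (16 genes, -0.09) by the ferric reductase FRO2 at -0.84 (95% interval -1.94 to 0.27, unadjusted p of 0.127) and clock genes (15 genes, -0.04) by PRR5 at -0.27 (95% interval -0.92 to 0.37, unadjusted p of 0.378).

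Markers of the cell types in a root tip had no member called in the interaction. The median was 0.01 for 5 root cap genes, 0.03 for 11 epidermis and root hair genes, 0.03 for 9 endodermis genes, -0.04 for 13 xylem genes, -0.08 for 12 phloem genes and -0.10 for 11 photosynthesis genes, with 0 of them at an unadjusted p under 0.05. These medians moved when single libraries were left out. The endodermis median was -0.49 without Col-0 control 1 and 0.30 without Col-0 control 2, the xylem median -0.42 without Col-0 control 1, and the photosynthesis median -0.47 without triple mutant bleomycin 1 and 0.26 without Col-0 bleomycin 1. Their smallest p-values belonged to the root cap NAC factor BRN2 with -0.34 (95% interval -0.83 to 0.14), the epidermal homeodomain factor GL2 with 0.43 (95% interval -0.03 to 0.88), the Casparian strip protein ESB1 with 1.38 (95% interval -1.39 to 4.15), the xylem factor MYB83 with -0.78 (95% interval -2.38 to 0.81), and the protophloem protein OPS with -0.47 (95% interval -1.0 to 0.06), and to the light-harvesting gene CAB2 with an unadjusted p of 0.317, given no size because a group had 3 or fewer reads. Photosynthesis genes differed by library number: their median level relative to all libraries in library 1 was 0.65 in bleomycin-treated triple mutants, 0.61 in triple mutant controls, 0.90 in bleomycin-treated Col-0 and 0.39 in Col-0 controls, and in library 3 it was -0.62, -0.47, -0.26 and -0.63 in the same order. The part of this in any interaction was not tested.

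Over the 27 lists together, 451 different genes were measured. edgeR called 0 of them in the interaction. At an unadjusted p under 0.05 there were 0 higher (0.775% of all genes tested) and 11 lower (2.44% of the listed genes, against 0.974% of all genes tested). Over the alternatives these counts were 0 to 6 higher and 7 to 21 lower, with 6 higher and 11 lower without triple mutant control 2. The 11 were DOF3.4, ANAC071, TMO6, WEE1, KU70, IAA5, IAA2, ARR7, ARR5, GSTF6 and GSTU5. Values not given above were -0.64 (95% interval -1.11 to -0.17, unadjusted p of 0.0117) for TMO6, a DOF factor of the root vasculature, -0.76 (95% interval -1.30 to -0.22, unadjusted p of 0.00953) for IAA2, an auxin-response repressor, -1.03 (95% interval -1.96 to -0.09, unadjusted p of 0.0334) for ARR5, a type-A response regulator, and -0.96 (95% interval -1.79 to -0.13, unadjusted p of 0.0273) for the glutathione transferase GSTU5. Of the 451, 202 had an interaction above 0, against 10679 of 21561 genes tested.

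**Figure D5:**
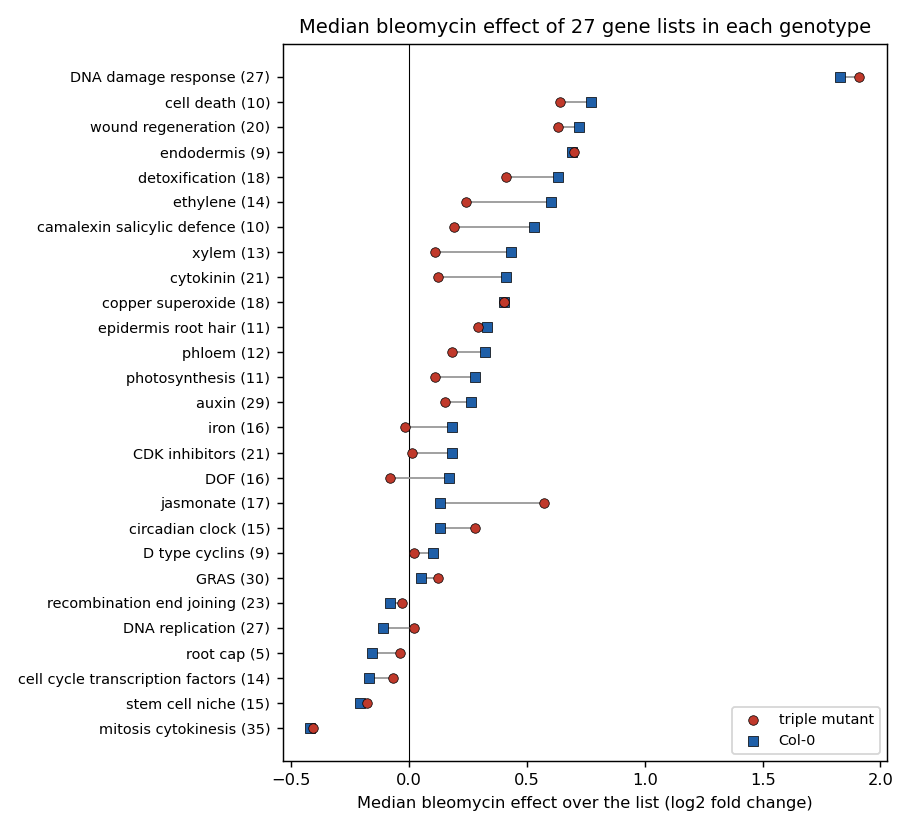
Median log2 bleomycin effect of each of the 27 gene lists in the triple mutant (dot) and in Col-0 (square), with the number of measured genes. The damage response list lies at 1.91 in the triple mutant and 1.83 in Col-0; no member of any list was called in the interaction.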

How the data were processed

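The authors deposited 1 table per library with estimated counts and TPM values, made by assigning reads to 88971 transcripts, per the file headers. Per the submitters' processing notes the tools were Salmon 0.9.1 and CASAVA. No source used here names a genome build, an annotation or program options. The TPM columns deposited by the authors were not used for any value.

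Estimated counts were summed per locus, rounded to whole numbers and kept for 37138 loci without transposable elements, of which 36899 matched a gene in the RefSeq table. All 12 libraries entered 1 model with a term per group in edgeR 4.0.16 (R 4.3.3), with TMM scaling, the filter by expression and quasi-likelihood F tests. Calls are at a Benjamini-Hochberg adjusted p under 0.05. Standard errors are the log2 value over the root of F, with 95% intervals from the t distribution. The alternatives were other size factors, DESeq2 1.42.0, limma 3.58.1 voom with and without quality weights, other filters, a replicate term, no organelle or ribosomal RNA loci, and each library left out. No replicate pair agreed within sampling noise (chi-square over its degrees of freedom 18.4 to 99.6). The script was tested on simulated data.

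Genes named by rule were the 3 targeted genes, DOF3.4, ERF115, ERF114 and CYCD3;3, the 6 genes in each direction with the smallest interaction p and a mean of at least 1 CPM, the 8 highest and 4 lowest bleomycin responders on average with a mean of at least 5 CPM, and the member of each of the 27 lists with the smallest interaction p. All other names were picked with their values known. The comparison, its gene lists and these rules were chosen with earlier results of these data known. Of 489 list entries, 466 were measured, and 1 member of the damage response list is not reported here. Intervals for ratios and floors of 3 reads cover counting error only. Fitted sizes are not given for the interaction of genes with 3 or fewer reads in a group. Coordinates and promoters are from RefSeq TAIR10.1, whose gene models share a transcript length with the files at 27390 of 27390 protein-coding loci compared. The p-values rest on the variation among these 12 libraries, which the labels call biological replicates.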

Additional observations from a re-analysis of the deposited data

How the results depend on the processing

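The interaction had 0 calls under all 22 alternatives, 21 planned and 1 chosen after seeing the data. Leaving out each library in turn gave 0 calls throughout (0 to 0), and the smallest adjusted p was 0.061, for AT5G19097 without Col-0 bleomycin 2. No call of a named gene changed direction. Interaction medians of lists near 0 did change sign, for example ranging from -0.15 to 0.25 for mitosis, -0.18 to 0.55 for jasmonate, -0.39 to 0.11 for cell death, -0.49 to 0.30 for endodermis and -0.03 to 0.16 for the DNA damage response. Of 128 calls of named genes in the comparisons, 74 held under all alternatives, and 0 named interactions became called.

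Counts of calls moved in the other comparisons. For bleomycin in the triple mutant (1727 genes), DESeq2 called 2871 and weighted voom 2990, and leaving out single libraries gave 510 to 1853. For bleomycin in Col-0 (1455 genes) these were 2716, 3883 and 356 to 2081. For genotype in bleomycin (6 genes), DESeq2 called 22, edgeR without a filter 10, and single libraries left out 5 to 10. For genotype on control medium (6 genes), DESeq2 called 24 and leaving out libraries gave 4 to 9. The average effect (5173 genes) had 6119 by DESeq2, 7522 by weighted voom and 3496 to 5580 with single libraries left out. The cause was not tested.

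With the replicate number as a block, the interaction still had 0 calls (smallest adjusted p = 0.999, 663 genes at an unadjusted p under 0.05), and the counts were 3633 in the triple mutant, 3437 in Col-0, 10 for genotype in bleomycin, 8 for genotype on control medium and 7036 on average, with 10 mitosis genes fallen in the triple mutant and 11 in Col-0. The block without triple mutant control 3 gave 0, 3699, 4659, 15 and 7786 calls for the interaction, the triple mutant, Col-0, genotype in bleomycin and the average. Same-numbered libraries of different groups had correlated deviations over 0.1 in 11 of 18 pairs (-0.026 to 0.472), against -0.302 to 0.139 for other numbers. Every one of 12 libraries correlated best with its own number, which is a hint from the data, not the design.

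For genes with 3 or fewer reads in a group, such as DOF3.4 and IAA5, no size of the interaction is given at this depth.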
